A study of Homo sapiens with 10 samples.

Results

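The hypoxia-inducible genes described here are 10 targets of the hypoxia-inducible transcription factors (HIF), NDUFA4L2, BNIP3, BNIP3L, VEGFA, ADM, NDRG1, CA9, ANKRD37, EGLN3 and P4HA1. They were taken by name from the 19893 genes of a single-cell count matrix as known HIF targets, and all 10 were found in it. The choice was made with earlier results of these data known. The cells are Kuramochi, a human line labelled epithelial and BRCA2-mutant, known as a model of high-grade serous ovarian cancer. They were profiled after olaparib, a drug that blocks the PARP enzymes of DNA repair. Control cells had never met the drug, persister cells came from 9 days of acute exposure of such cells to 10 µM or 320 µM olaparib, and adapted cells were resistant populations at the same doses. Every group shares the line and its mutation, and how the adapted populations were derived, or whether they are clones, is not given in the sources used here. Cells of the 5 conditions were hashed with antibodies and mixed in 2 pools, so no library belongs to 1 condition and each cell's condition and pool were read from its deposited name. Whether the pools are independent cultures is not stated, and p-values cover no more than the pool-to-pool spread, which may be technical. No oxygen measurement or low-oxygen culture is described.

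In well-oxygenated cells, prolyl hydroxylases of the EGLN family mark the alpha subunits HIF1A and EPAS1 for capture by VHL and destruction. When oxygen is short, or the hydroxylases are otherwise inhibited, the alpha subunits last longer, pair with ARNT and bind short DNA elements beside their target genes. Those targets shift cells toward glycolysis, remove mitochondria, secrete vessel-forming factors and restore the hydroxylases themselves, and HIF activity is a known feature of many solid tumours.

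The core letters that HIF is known to bind are shown first. The genes were chosen as known HIF targets, so the letters are not independent of that choice, and their frequency was not tested. Promoter windows from RefSeq (GRCh38.p14), each 250 bases before to 50 bases after a gene's start, were taken for 6 of the 10 genes. These were BNIP3, ADM, CA9, ANKRD37, EGLN3 and P4HA1. NDUFA4L2, BNIP3L, VEGFA and NDRG1 were left out of the search, so the counts below say nothing of their promoters. The letters ACGTG and GCGTG were searched on both strands, where they read CACGT and CACGC on the other strand, and CACGTG holds both ACGTG and CACGT. At least 1 match was present in 5 of the 6 windows, against 48.4% of all 35116 windows in the table, which hold the letters by the same search. Stretches that hold the matches are given below on the gene's own strand, with the matched letters in capitals.
BNIP3: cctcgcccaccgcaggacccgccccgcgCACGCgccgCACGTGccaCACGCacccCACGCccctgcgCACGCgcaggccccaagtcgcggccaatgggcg
ANKRD37: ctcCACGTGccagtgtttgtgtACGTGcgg
ADM: agagcaggagcgcGCGTGgctgaggaaaga
P4HA1: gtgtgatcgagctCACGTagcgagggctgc
CA9: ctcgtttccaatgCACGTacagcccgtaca
The BNIP3 stretch is chr10:131981995-131982094 on the minus strand and holds 6 matches, which begin 104 to 143 bases before the RefSeq start. That of ANKRD37 is chr4:185396676-185396705 on the plus strand and holds 3. Those of ADM (chr11:10304959-10304988, plus strand), P4HA1 (chr10:73096936-73096965, minus strand) and CA9 (chr9:35673897-35673926, plus strand) hold 1 each. The EGLN3 window held none, which says only that the letters are not in that window. CA9 carries the letters 18 bases before its RefSeq start and was nearly undetected, as described below. The gene positions given below are from another annotation, GENCODE 29, whose starts differ from those of RefSeq. By GENCODE the stretches of ANKRD37, ADM, P4HA1 and CA9 lie inside the gene, not before it. A match is a description of sequence, not evidence of binding.

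UMI counts (unique molecular identifiers, 1 per captured transcript) were added up within each condition and pool, giving 10 sums with n = 2 per condition. The sums held 263 to 2435 cells and 3532281 to 23189583 UMIs each. Those of 10 µM persister cells were the smallest, where 3 UMIs, read as the floor, equal 0.801 and 0.849 CPM. Levels are CPM, UMI counts scaled to a common total with trimmed mean of M-values factors. Each log2 change is the first-named condition minus the second, from edgeR's quasi-likelihood test fitted to 13330 genes that passed a filter on low counts. A gene was called changed at a Benjamini-Hochberg adjusted p under 0.05. Of the 10 genes, 9 passed the filter and CA9 did not. The 4 comparisons with control share the control sums. In the fit 49.3% to 74.5% of all genes were called in a comparison, so a call alone is common, and the shares of all genes called are given beside each first count. Of 11 epithelial and serous markers, 11 were above the floor in control and in 10 µM persister cells. In 320 µM persister cells 10 were, and 9 in each adapted condition. KRT8, KRT18 and PAX8 were present in every sum. In 320 µM adapted cells CDH1 and MUC16 held 1 UMI each, and WT1 was at 0.898 CPM against 24.9 in control. The summed level of the 11, mostly KRT8 and KRT18, ran from 4271 to 4364 CPM in control down to 1239 to 1371 CPM in 320 µM adapted cells. Against control 6 of the 11 rose and 3 fell in 10 µM persister cells, and 1 rose and 10 fell in 320 µM adapted cells. Of 6 leukocyte markers 3 were above the floor in every condition. The 6 summed to 51.7 to 68.1 CPM in 10 µM persister cells, mostly LST1, and to 18.4 to 19.5 CPM in 320 µM adapted cells, mostly CD68, against 2.48 to 2.59 in control and 3.14 to 9.54 in the other 2 conditions. In 10 µM persister cells CD3E and TYROBP were at 0 and PTPRC at 3 UMIs. Of 5 fibroblast markers, 5 were above the floor in 10 µM adapted cells, summing to 103 to 107 CPM, mostly COL1A1, against 1.15 to 1.31 in control. The part of these marker differences in the results below was not tested.

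Most of the genes were highest in 2 of the 4 treated conditions, the low-dose persister cells and the high-dose adapted cells. EGLN3 was an exception, at a mean of 9.49 CPM in 320 µM adapted cells against 10.1 in control. ANKRD37 was another, at 20.9 CPM in 320 µM persister against 18.7 in 10 µM persister cells, with overlapping sums. In 10 µM persister cells 9 of the 9 tested genes rose against control, where 56.6% of all tested genes were called, 27.3% higher and 29.3% lower, and their median log2 change was 1.65 against -0.026 over all genes. In 320 µM adapted cells 8 rose and none fell (74.5% of all genes were called, 37.6% higher and 36.9% lower), with a median of 1.68 against 0.0091. In between stood the 320 µM persister cells, with 5 higher and 2 lower (54.6% of all genes were called, 26.3% higher and 28.3% lower) and a median of 0.31, and the 10 µM adapted cells, with 6 higher and 2 lower (67.1%, of which 33.7% higher and 33.4% lower) and a median of 0.58. The all-gene medians of those 2 comparisons were -0.013 and 0.0048. Because the genes were chosen with earlier results of these data known, these counts describe a selected set. The composition of the counted RNA also differed in the 2 conditions with the most rises. Mitochondrially encoded genes took 5.34% and 5.31% of UMIs in the 10 µM persister sums and 5.35% and 5.40% in the 320 µM adapted sums, against 8.33% and 8.08% in control and 7.30% to 9.39% in the other 4 sums. Ribosomal protein genes took 13.8% and 14.7% in the former and 36.8% and 36.9% in the latter, on either side of 25.1% and 25.3% in control. The part of these differences in the results was not tested.

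**Figure D1:**
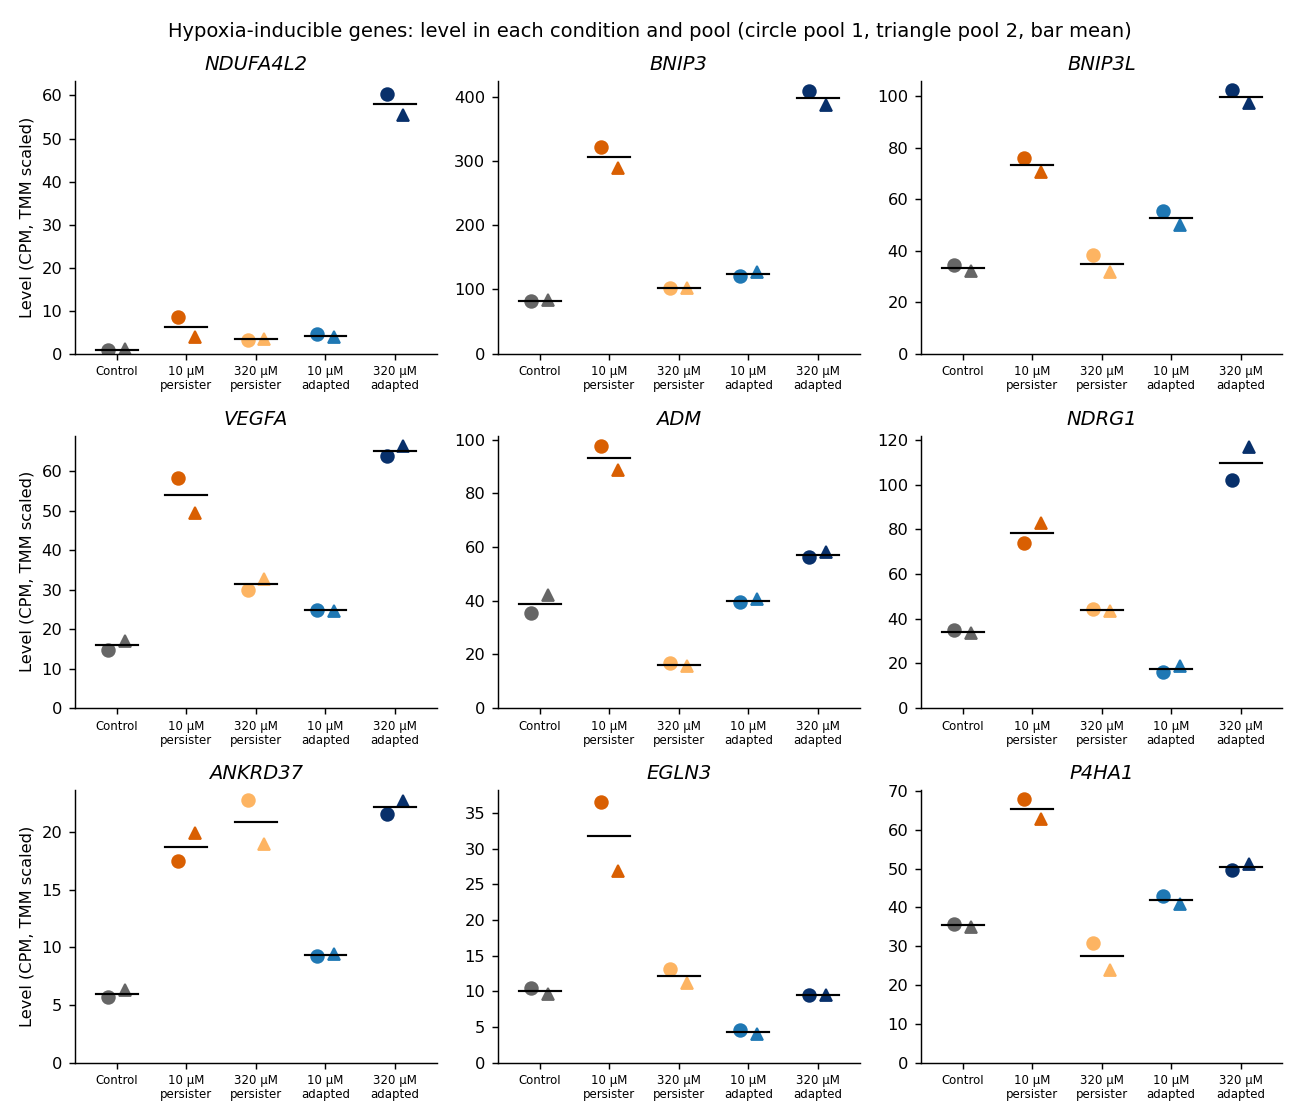
Level in CPM (vertical axis, from 0, a scale of its own in each panel) of the 9 tested genes in the 5 conditions. Circles are pool 1, triangles pool 2 and bars the mean of n = 2 sums. In most panels the 10 µM persister and 320 µM adapted points stand highest, whereas EGLN3, ADM and P4HA1 peak in 10 µM persister cells alone and the ANKRD37 points of 320 µM persister and 320 µM adapted cells overlap.

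Among the genes of mitochondrial proteins NDUFA4L2 had the largest change. NDUFA4L2 (chromosome 12, 57234903 to 57240715, minus strand, positions from GENCODE 29 on GRCh38) encodes a relative of the respiratory chain subunit NDUFA4 and is known to lower mitochondrial respiration in hypoxia. It was at 0.884 and 0.976 CPM in the control sums, 8.51 and 3.84 in 10 µM persister, 3.21 and 3.38 in 320 µM persister, 4.64 and 3.80 in 10 µM adapted and 60.4 and 55.5 in 320 µM adapted cells. Both 320 µM adapted sums lay far above all 8 others and both control sums below all others. The 10 µM persister sums rest on 33 and 16 UMIs and overlap those of 10 µM adapted cells. NDUFA4L2 was higher in 320 µM adapted cells than in control by 5.94 on the log2 scale (SE 0.149, edgeR adjusted p = 1.6e-23). Its rises in the other conditions were 2.70 in 10 µM persister (SE 0.325), 1.81 in 320 µM persister (SE 0.302) and 2.17 in 10 µM adapted cells (SE 0.245), all called.

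The gene shares 33 bases at its 3′ end with the 3′ end of SHMT2, a mitochondrial serine enzyme gene on the opposite strand, and the strand setting of the counting is not given in the sources used here. SHMT2 rose by 1.33 in 320 µM adapted cells against control (SE 0.0550, edgeR adjusted p = 4.54e-19), from 51.3 and 51.4 to 130 and 129 CPM. UMIs of NDUFA4L2 were 1.72% and 1.90% of those of SHMT2 in the control sums and 46.4% and 43.1% in the 320 µM adapted sums. In 320 µM adapted cells NDUFA4L2 was detected in 22.9% and 22.4% of cells with an SHMT2 UMI and in 20.8% and 22.1% of cells without one, pool by pool. In 10 µM adapted cells these shares were 3.96% and 4.26% against 2.18% and 1.94%. They were 3.74% and 6.69% against 3.55% and 2.53% in 320 µM persister cells, and 6.41% and 7.46% against 5.56% and 3.88% in 10 µM persister cells. Control gave 0.949% and 0.806% against 0.628% and 0.855%. Cells were not thinned here, and those with an SHMT2 UMI held more UMIs on average in every sum. The counts of the 2 genes did not keep 1 ratio over the conditions, and whether SHMT2 reads entered those of NDUFA4L2 was not tested.

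BNIP3 (chromosome 10, 131966455 to 131982013, minus strand) encodes an outer mitochondrial membrane protein that recruits the autophagy machinery to mitochondria. It was at 82.5 and 82.8 CPM in control, 322 and 290 in 10 µM persister, 102 and 103 in 320 µM persister, 121 and 127 in 10 µM adapted and 408 and 387 in 320 µM adapted cells. The 5 conditions formed a ladder with no overlap between neighbours, from control through 320 µM persister, 10 µM adapted and 10 µM persister to 320 µM adapted cells. The log2 changes against control were 2.27 in 320 µM adapted (SE 0.0512, edgeR adjusted p = 2.22e-25), 1.89 in 10 µM persister (SE 0.0546, adjusted p = 1.12e-22), 0.58 in 10 µM adapted and 0.31 in 320 µM persister cells, all called. The annotation names 39 pseudogenes of BNIP3, none of them in the matrix, and how reads shared with them were counted is not known here.

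BNIP3L, its paralog and the mitophagy receptor also called NIX, was at 34.4 and 32.1 CPM in control, 75.8 and 70.4 in 10 µM persister, 38.3 and 31.6 in 320 µM persister, 55.5 and 49.9 in 10 µM adapted and 102 and 97.3 in 320 µM adapted cells. Its order was that of BNIP3, except that the 320 µM persister sums lay on either side of both control sums. It rose by 1.59 in 320 µM adapted (SE 0.0699, edgeR adjusted p = 3.44e-18), 1.14 in 10 µM persister cells and 0.67 in 10 µM adapted cells. The value in 320 µM persister cells was 0.07 (SE 0.0844, adjusted p = 0.493), which was not called and turned to -0.07 without pool 1 of that condition. BNIP3L shares its end with PNMA2 on the opposite strand, which held at most 34 UMIs in any sum.

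VEGFA and ADM encode secreted factors. VEGFA (chromosome 6, 43770184 to 43786487, plus strand), the main growth factor of new blood vessels, was at 14.8 and 17.1 CPM in control, 58.3 and 49.5 in 10 µM persister, 30.0 and 32.8 in 320 µM persister, 24.9 and 24.6 in 10 µM adapted and 63.8 and 66.5 in 320 µM adapted cells. No 2 conditions overlapped, and all 8 treated sums lay above both control sums. It rose in all 4 treated conditions, by 2.03 in 320 µM adapted (SE 0.0775, edgeR adjusted p = 7.05e-20), 1.75 in 10 µM persister, 0.98 in 320 µM persister cells and 0.63 in 10 µM adapted cells.

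ADM (chromosome 11, 10304680 to 10307397, plus strand) encodes adrenomedullin, a vasodilator peptide. It was at 35.4 and 42.1 CPM in control, 97.5 and 88.7 in 10 µM persister, 16.9 and 15.6 in 320 µM persister, 39.4 and 40.7 in 10 µM adapted and 56.1 and 58.0 in 320 µM adapted cells. The 2 persister doses lay on opposite sides of control with no overlap, and the 10 µM adapted sums fell between the control sums. ADM rose by 1.26 in 10 µM persister cells (SE 0.0823, edgeR adjusted p = 5.28e-14) and fell by 1.26 in 320 µM persister cells (SE 0.0971, adjusted p = 4.56e-12). In 320 µM adapted cells it rose by 0.56. The value in 10 µM adapted cells was 0.05 (SE 0.0751, adjusted p = 0.587), not called and of either sign under other settings.

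NDRG1 and ANKRD37 are widely used reporters of HIF activity. NDRG1, a stress-induced protein of cell differentiation and iron response, was at 34.9 and 33.6 CPM in control, 73.8 and 82.9 in 10 µM persister, 44.5 and 43.7 in 320 µM persister, 16.3 and 18.8 in 10 µM adapted and 102 and 117 in 320 µM adapted cells. The 2 adapted doses lay on opposite sides of control, the lower dose below it and the higher dose above every other sum. NDRG1 rose by 1.68 in 320 µM adapted (SE 0.0695, edgeR adjusted p = 6.73e-19), by 1.20 in 10 µM persister and by 0.36 in 320 µM persister cells, and fell by 0.96 in 10 µM adapted cells (SE 0.0849, adjusted p = 4.5e-11).

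ANKRD37 (chromosome 4, 185396021 to 185400628, plus strand), a small ankyrin repeat protein, was at 5.70 and 6.28 CPM in control, 17.5 and 19.9 in 10 µM persister, 22.8 and 19.0 in 320 µM persister, 9.27 and 9.41 in 10 µM adapted and 21.6 and 22.7 in 320 µM adapted cells. The 320 µM persister sums overlapped those of 320 µM adapted and of 10 µM persister cells, and the 10 µM adapted sums stood between these and control. The rises against control were 1.88 in 320 µM adapted (SE 0.108, edgeR adjusted p = 1.34e-15), 1.80 in 320 µM persister (SE 0.122, adjusted p = 2.37e-13), 1.65 in 10 µM persister (SE 0.155) and 0.64 in 10 µM adapted cells (SE 0.127). UFSP2, which overlaps its end on the opposite strand, ranged from 17.3 to 25.1 CPM over the 10 sums.

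EGLN3 and P4HA1 encode enzymes that use oxygen to hydroxylate proline, of HIF and of collagen. EGLN3 (chromosome 14, 33924231 to 34462774, minus strand), the HIF prolyl hydroxylase also called PHD3, was at 10.5 and 9.63 CPM in control, 36.6 and 26.9 in 10 µM persister, 13.1 and 11.2 in 320 µM persister, 4.64 and 4.06 in 10 µM adapted and 9.46 and 9.52 in 320 µM adapted cells. The 10 µM persister sums were the highest although their pools differed most, and the 10 µM adapted sums were the lowest. EGLN3 rose by 1.65 in 10 µM persister (SE 0.136, edgeR adjusted p = 1.12e-11) and fell by 1.21 in 10 µM adapted cells (SE 0.149, adjusted p = 3.22e-08). The values in 320 µM persister and 320 µM adapted cells, 0.27 (SE 0.138) and -0.09 (SE 0.125), were not called, though with library totals in place of trimmed mean factors both passed, at 0.32 and -0.31. EGLN3 was thus the 1 tested gene not called higher in 320 µM adapted cells. The whole span of SPTSSA, 29568 bases on the same strand, lies within that of EGLN3, near its start and far from its 3′ end. SPTSSA fell by 0.84 in 320 µM adapted cells, rose by 0.20 in 10 µM persister cells and ranged from 97.8 to 207 CPM over the sums.

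P4HA1 (chromosome 10, 73007217 to 73096974, minus strand), a catalytic subunit of collagen prolyl 4-hydroxylase, was at 35.7 and 35.0 CPM in control, 68.1 and 62.7 in 10 µM persister, 30.8 and 24.0 in 320 µM persister, 43.0 and 40.8 in 10 µM adapted and 49.7 and 51.2 in 320 µM adapted cells. No conditions overlapped, and the order was that of ADM. P4HA1 rose by 0.89 in 10 µM persister (SE 0.0887, edgeR adjusted p = 7.28e-10), 0.51 in 320 µM adapted and 0.25 in 10 µM adapted cells (SE 0.0753), and fell by 0.37 in 320 µM persister cells (SE 0.0883). Without pool 2 of the 320 µM persister cells the fall was -0.18 and was not called, and without pool 1 of the 10 µM adapted cells that rise was 0.20 and was not called.

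CA9 (chromosome 9, 35673856 to 35681159, plus strand), a cell surface carbonic anhydrase widely used to mark hypoxic tumour areas, had 1 UMI among 139130201, in 1 of 13800 cells, a 320 µM adapted cell. Its 9 other sums held 0 UMIs, which allows levels of up to 0.129 CPM in the deepest control sum and 0.849 CPM in the shallower 10 µM persister sum. No change in CA9 was detectable at this depth. ARHGEF39, which overlaps CA9 on the opposite strand, was counted in every sum, at 3.60 to 22.1 CPM.

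The design also sets adapted cells against persister cells at each dose, and these comparisons went opposite ways. At 10 µM 8 of the 9 genes were lower in adapted than in persister cells and none was higher (60.7% of all genes were called, 31.4% higher and 29.3% lower), with a median of -1.12 against 0.057 over all genes. EGLN3 fell most, by 2.86 (SE 0.163, edgeR adjusted p = 1.92e-15), then NDRG1 by 2.16, BNIP3 by 1.30, ADM by 1.21, VEGFA by 1.12, ANKRD37 by 1.01, P4HA1 by 0.64 and BNIP3L by 0.47. NDUFA4L2 was at -0.53 (SE 0.261, adjusted p = 0.0802), and this value depends on 1 sum. It was 0.12 without pool 1 of the 10 µM persister cells and -1.01 without pool 2, and -0.72 and called with library totals alone.

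At 320 µM 7 genes were higher in adapted than in persister cells and 1 lower (66.7% of all genes were called, 34.1% higher and 32.6% lower), with a median of 1.32 against 0.030 over all genes. NDUFA4L2 rose by 4.13 (SE 0.152, edgeR adjusted p = 1.9e-19), BNIP3 by 1.96, ADM by 1.81, BNIP3L by 1.51, NDRG1 by 1.32, VEGFA by 1.05 and P4HA1 by 0.88. EGLN3 was the gene called lower, by -0.35 (SE 0.145, adjusted p = 0.0333), and it was not called by DESeq2 (-0.36, adjusted p = 0.102), without pool 1 of the 320 µM persister cells (-0.24), or without either adapted sum (-0.36 each). ANKRD37 was at 0.08 (SE 0.105, adjusted p = 0.49), and at -0.20, not called, with library totals alone.

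Between doses the direction again depended on the kind of cell. Among persister cells 8 of the 9 genes were lower at 320 µM than at 10 µM and none was higher (49.7% of all genes were called, 25.3% higher and 24.4% lower). The median was -1.06 against 0.029 over all genes, and the changes ran from a fall of 2.52 in ADM (SE 0.103, edgeR adjusted p = 8.96e-19) through 1.58 in BNIP3, 1.38 in EGLN3, 1.25 in P4HA1, 1.06 in BNIP3L, 0.83 in NDRG1 and 0.77 in VEGFA. That of NDUFA4L2, -0.89 (SE 0.297), was -0.22 and not called without pool 1 of the 10 µM persister cells, and -0.85 and not called without pool 1 of the 320 µM ones. ANKRD37 was at 0.15 and not called (SE 0.141, adjusted p = 0.381).

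Among adapted cells all 9 tested genes were higher at 320 µM than at 10 µM (65.8% of all genes were called, 33.4% higher and 32.4% lower), with a median of 1.25 against 0.017. NDUFA4L2 was at 3.78 (SE 0.125, edgeR adjusted p = 2.76e-20) and NDRG1 at 2.64 (SE 0.0796, adjusted p = 1.02e-21), followed by BNIP3 at 1.68, VEGFA at 1.40, ANKRD37 at 1.25, EGLN3 at 1.13, BNIP3L at 0.92, ADM at 0.51 and P4HA1 at 0.27. With library totals alone P4HA1 was at 0.11 and was not called.

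Tested directly as the difference between those changes, the step from persister to adapted cells was more positive at 320 µM than at 10 µM for all 9 tested genes (49.3% of all genes were called, 23.4% in that direction and 25.9% in the other). The median difference was 2.51 against -0.034 over all genes. ANKRD37 had the smallest at 1.09 (SE 0.182, edgeR adjusted p = 9.99e-06) and NDUFA4L2 the largest at 4.66 (SE 0.364, adjusted p = 1.23e-11).

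**Figure D2:**
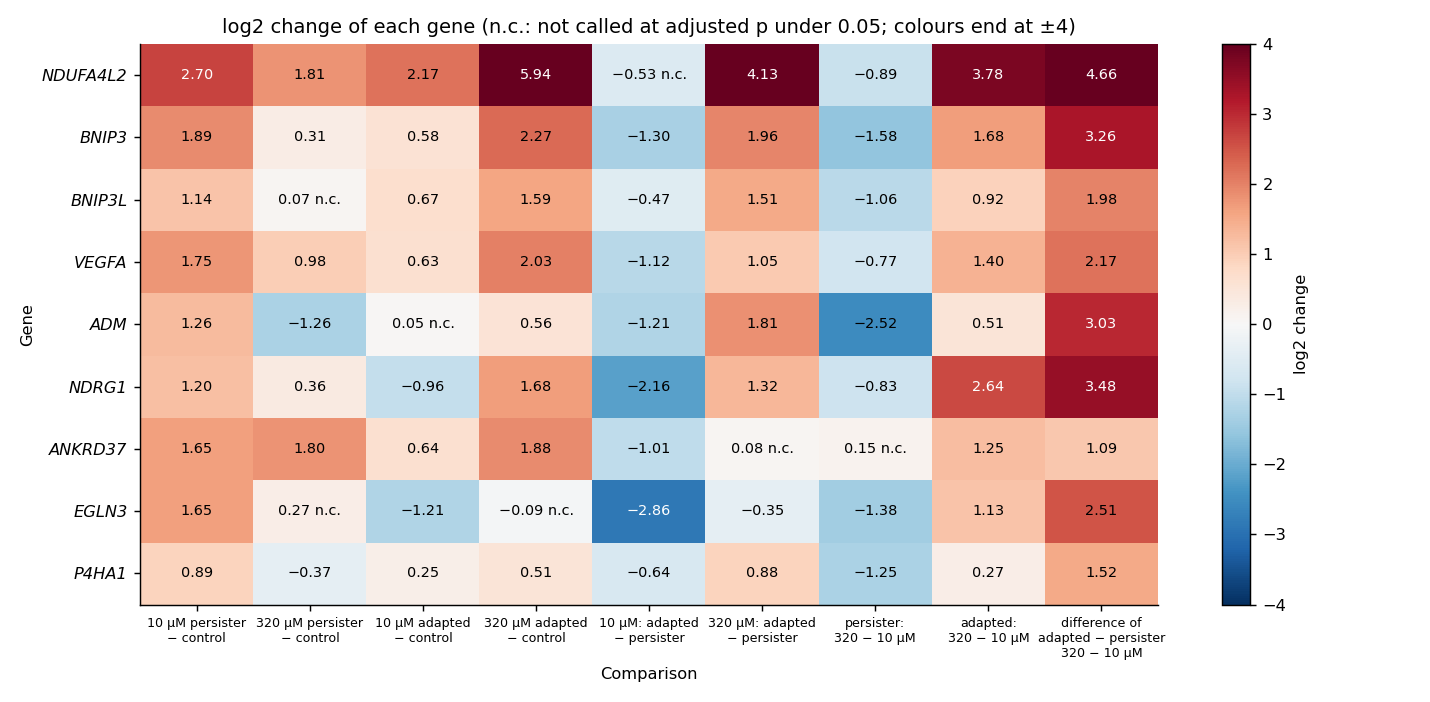
Heat map of the log2 change (colour and printed value, red higher and blue lower in the first-named condition, colours ending at 4 in either direction) of the 9 tested genes in rows over the 9 comparisons in columns, with n.c. for values not called. The columns of 10 µM persister and 320 µM adapted cells against control are red apart from EGLN3 in the latter (-0.09, not called), the adapted against persister columns have opposite colours at the 2 doses for most genes, and the last column is positive throughout.

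A sum does not show whether more cells made a transcript or the same cells made more. Shares of cells with at least 1 UMI were therefore taken after each cell was thinned to 3000 UMIs, which left out 207 cells, among them 27 and 25 of the 300 and 263 persister cells at 10 µM. With 2 sums on each side the smallest p of an exact permutation test is 0.333, so the shares were not tested. Free RNA can place a UMI in a cell that does not make the transcript, no cell type known to lack these genes was present, and its share was not measured. Each condition was present in both pools, so the lowest share of a gene is given as a reference.

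BNIP3 was detected in 21.2 ± 0.211% of control cells (SD, n = 2), 44.1 ± 5.96% of 10 µM persister, 25.9 ± 1.99% of 320 µM persister, 26.4 ± 2.80% of 10 µM adapted and 54.7 ± 1.01% of 320 µM adapted cells. Without thinning these shares were 51.1, 71.9, 63.8, 53.3 and 84.0%. NDUFA4L2 was in 12.5 ± 0.935% of 320 µM adapted cells, against 0.314 ± 0.152% of control cells and 1.12 to 2.25% on average in the other 3 conditions (22.2% against 0.787% and 2.90 to 5.85% without thinning). In the 10 µM persister pools NDUFA4L2 was in 3.66% and 0.840% of thinned cells, which are only 10 and 2 cells. Without thinning the same pools were alike, at 6% and 5.70%. ADM was in 20.8 ± 3.25% of 10 µM persister cells and 3.98 ± 0.796% of 320 µM persister cells, on either side of 9.07 ± 1.21% in control. NDRG1 was in 5.07 ± 0.160% of 10 µM adapted and 23.3 ± 1.58% of 320 µM adapted cells, on either side of 10.8 ± 0.402% in control. VEGFA went from 4.49 ± 0.337% in control to 14.4 ± 1.37% in 10 µM persister cells and 15.6 ± 0.790% in 320 µM adapted ones, and EGLN3 was at 7.70 ± 2.57% in 10 µM persister against 1.27 to 4.52% in the other 4 conditions. The conditions had the same order by mean share as by mean CPM for 7 of the 9 genes. The exceptions were NDUFA4L2, with 1.37% of 320 µM persister and 1.12% of 10 µM adapted cells, and ANKRD37, with 6.05% of 320 µM persister and 5.93% of 320 µM adapted cells.

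**Figure D3:**
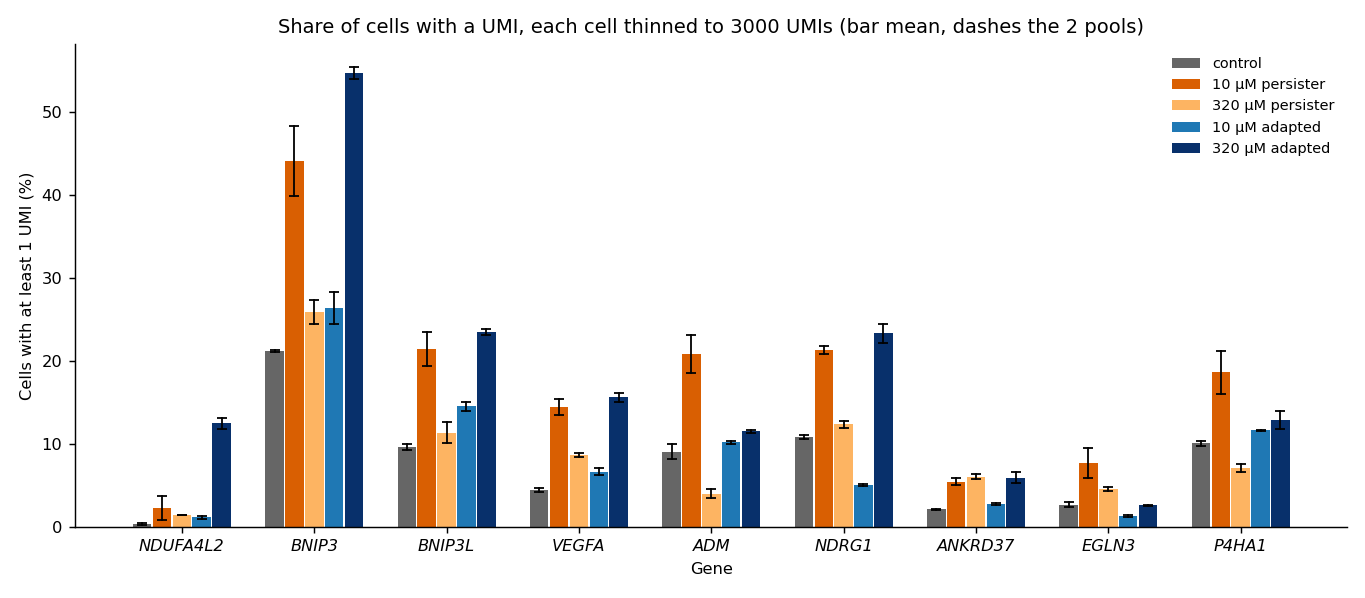
Share of cells with at least 1 UMI (vertical axis, percent) of the 9 tested genes after thinning to 3000 UMIs per cell, by condition. Bars are the mean of n = 2 pools and dashes mark the 2 pools. BNIP3 reaches 54.7% of 320 µM adapted cells, and NDUFA4L2 averages 12.5% there and at most 2.25% elsewhere.

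Positive cells also differed in how many transcripts they held. Unthinned BNIP3-positive cells held 1.57 and 1.70 BNIP3 UMIs each in control, 5.53 and 6.71 in 10 µM persister and 3.87 and 4.23 in 320 µM adapted cells. The median depth of all cells was also higher in 10 µM persister cells, at 12099.5 and 15213 UMIs against 8539 and 10000 in control, whereas 320 µM adapted cells were close to control at 8211 and 9679.5. NDUFA4L2 was unevenly spread in 320 µM adapted cells, where the top 5% of cells held 52.1% and 54.2% of its UMIs and single cells reached 21 and 15 UMIs. For BNIP3 in the same cells, at a mean of 398 CPM, the top 5% held 19.9% and 20.2%. For ADM, at 57.1 CPM against 57.9 for NDUFA4L2, the top 5% held 46.1% and 43.1%. Much of the unevenness was thus shared by a gene of like level.

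Cells with several of the 10 genes detected together were about as frequent in the low-dose persister as in the high-dose adapted cells. At 3000 UMIs a cell had 0.704 ± 0.0028 of the 10 genes detected in control (SD, n = 2), 1.56 ± 0.217 in 10 µM persister, 0.812 ± 0.0049 in 320 µM persister, 0.795 ± 0.0165 in 10 µM adapted and 1.62 ± 0.0243 in 320 µM adapted cells. Cells with 3 or more made up 2.71 ± 0.658% of control cells, 22.9 ± 3.87% of 10 µM persister, 3.89 ± 0.917% of 320 µM persister, 4.40 ± 0.389% of 10 µM adapted and 22.5 ± 0.279% of 320 µM adapted cells. Cells with none made up 48.3 ± 0.759% of control and 19.2 ± 0.581% of 320 µM adapted cells.

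**Figure D4:**
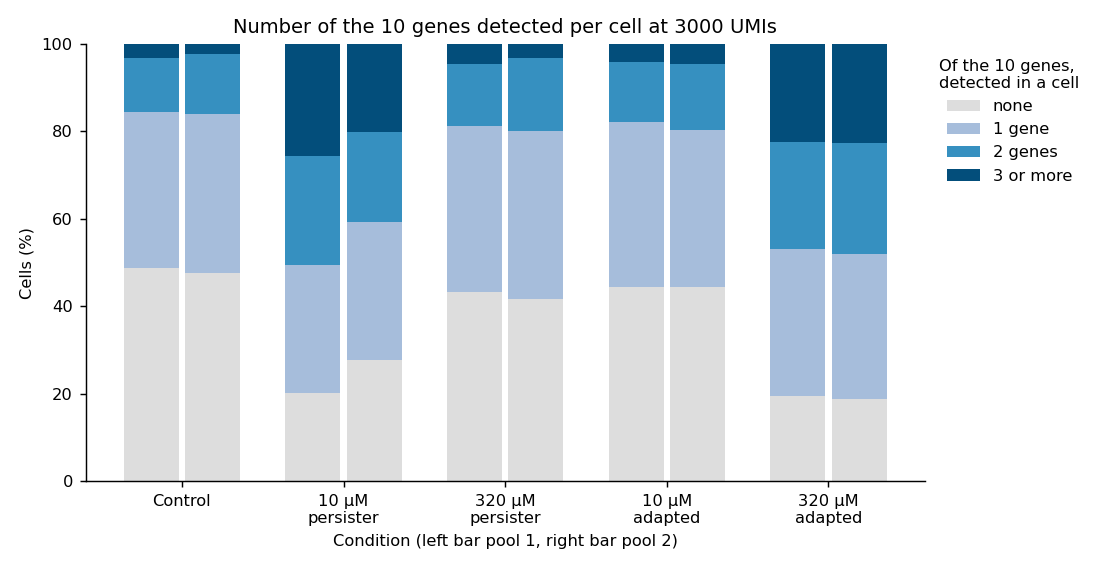
Share of cells (vertical axis, percent) with none, 1, 2 or at least 3 of the 10 genes detected at 3000 UMIs, for each condition and pool (left bar pool 1, right bar pool 2). The dark segment of 3 or more genes is 20.2% to 25.6% of cells in 10 µM persister and 320 µM adapted bars and at most 4.67% in the others.

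Detection of 1 gene in the same cells as another was read against BNIP3, at equal depth. In 10 µM persister cells ADM was detected in 34.8% and 29.5% of BNIP3-positive cells of the 2 pools, against 12.1% and 11.2% of BNIP3-negative cells. In control cells the 2 shares were 7.06% and 12.5% against 8.52% and 9.22%, with no common direction in the pools. In 320 µM adapted cells NDUFA4L2 was in 17.4% and 15.8% of BNIP3-positive cells against 7.78% and 7.13% of negative cells, and NDRG1 in 25.4% and 29.8% against 18.2% in both pools. BNIP3L was in 28.1% and 26.3% of BNIP3-positive 320 µM adapted cells against 18.7% and 19.4%. EGLN3, which was not called in the sums of 320 µM adapted cells, was in 2.95% and 2.94% of BNIP3-positive cells against 2.22% and 2.02% there. These are descriptions of the cells of each pool, with no test.

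**Figure D5:**
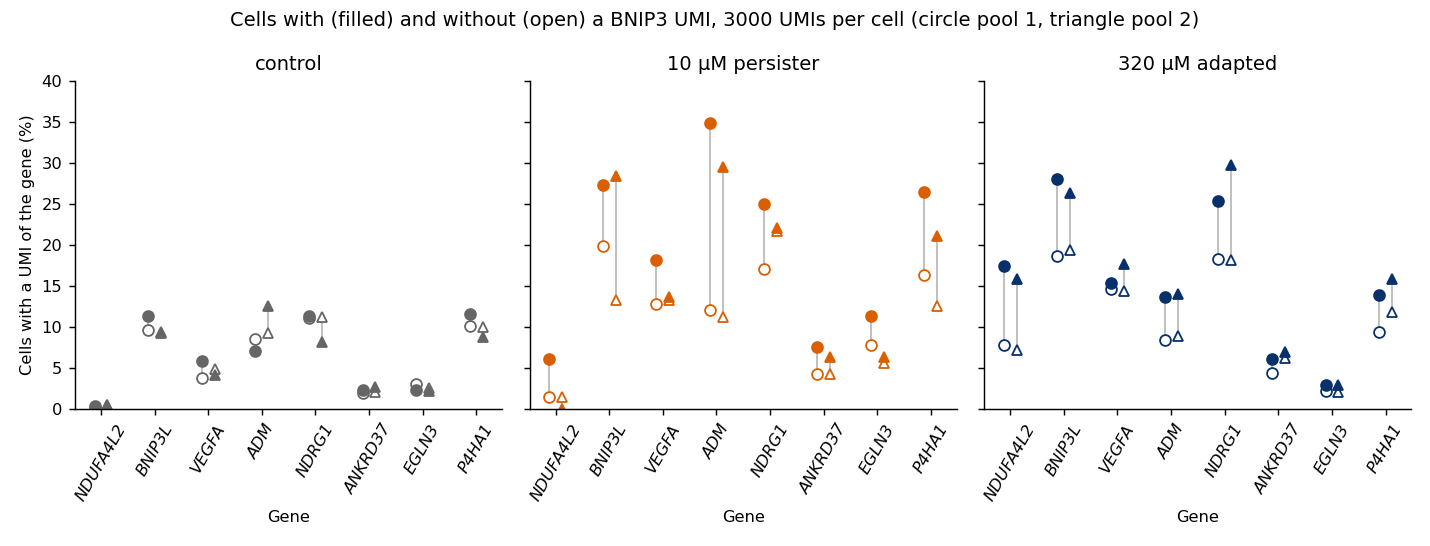
Share of cells with a UMI of each gene (vertical axis, percent) among cells with a BNIP3 UMI (filled) and without one (open), at 3000 UMIs per cell, in control, 10 µM persister and 320 µM adapted cells. Circles are pool 1, triangles pool 2 and grey lines join the 2 shares of a pool. The gap is widest for ADM in 10 µM persister cells (34.8% against 12.1% in pool 1), where the control shares are 7.06% against 8.52%.

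A deposited list whose name ends in g1 holds 7762 of the 13800 cells, with no other reason given, and its share differed by condition, at 42.3% and 43.5% of control, 75.3% and 76.0% of 10 µM persister, 78.7% and 74.9% of 320 µM persister, 62.9% and 67.0% of 10 µM adapted and 53.9% and 55.1% of 320 µM adapted cells. Within 320 µM adapted cells NDRG1 stood at 143 and 162 CPM in listed cells against 47.9 and 53.3 in the others (CPM of the cells' own UMI total, pools 1 and 2). NDUFA4L2 stood at 76.2 and 77.9 against 34.4 and 24.6 there. In 10 µM persister cells ADM was at 122 and 119 CPM in listed against 57.8 and 27.5 in other cells, the latter from 47 and 23 UMIs. In control cells BNIP3 went the other way, at 76.7 and 75.4 CPM in listed against 87.6 and 89.2 in other cells. With the listed cells alone, 9 of the 9 tested genes were called in 10 µM persister cells and 8 in 320 µM adapted cells against control, the same counts as with all cells.

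The 9 genes did not all follow 1 profile over the conditions. Across the 10 sums, which share 5 conditions and 2 pools, Pearson's r of log2 CPM was 0.961 between BNIP3 and BNIP3L, 0.942 between BNIP3 and VEGFA and 0.960 between ADM and P4HA1. It was 0.0646 between ADM and ANKRD37 and 0.0110 between NDUFA4L2 and EGLN3. These values are descriptions over 10 sums that are not independent.

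By the same measure, the genes most like each one among 6748 tested genes with at least 20 CPM in their highest condition were named, 3 for each. NDUFA4L2 was nearest to SHMT2, its overlapping neighbour (r = 0.985), then QSOX2 (0.979) and EIF3D (0.975). BNIP3 was nearest to TWF2 (0.990), ZMAT5 and CUTA, and BNIP3L to SLC9A3R2 (0.989), PTRH2 and FOSL1. VEGFA was nearest to HM13 (0.983), the glycolytic enzyme gene ENO2 and CIB1, and NDRG1 to KLF6 (0.993), PSMD7 and PFDN6. ADM was nearest to PPA1 (0.977), PMP22 and GAR1, ANKRD37 to DPM3 (0.985), SNAP29 and SARAF, EGLN3 to KCTD5 (0.994), PNO1 and C6orf62, and P4HA1 to BID (0.970), AK4 and SDF2L1. No 2 of the 9 shared a nearest gene.

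The other genes of the pathway were taken from lists made with earlier results of these data known, and are described by counts. Of 18 tested genes of the HIF machinery, the subunits, hydroxylases and their partners, 5 rose and 5 fell in 10 µM persister cells against control, 3 and 7 in 320 µM persister, 3 and 7 in 10 µM adapted and 7 and 6 in 320 µM adapted cells, with medians of -0.014, 0.025, -0.14 and 0.0013. Over all genes 56.6%, 54.6%, 67.1% and 74.5% were called in these 4 comparisons, with medians of -0.026, -0.013, 0.0048 and 0.0091, so the machinery as a list is not set apart by its number of calls. HIF1A, the oxygen-regulated subunit, went from 82.8 ± 3.87 CPM in control to 137 ± 11.1 in 10 µM persister, 73.4 ± 2.92 in 320 µM persister, 162 ± 1.81 in 10 µM adapted and 463 ± 1.62 in 320 µM adapted cells (SD, n = 2). Those are called log2 changes of 0.72, -0.17, 0.97 and 2.48 in the same order. EPAS1, the subunit also called HIF2A, rose by 0.94 in 10 µM persister cells and fell by 0.61 in 320 µM persister and by 0.48 in 320 µM adapted cells, at levels of 5.20 to 15.2 CPM. ARNT, their shared partner, fell in 320 µM adapted cells by 0.91, while VHL, which captures hydroxylated HIF, rose by 0.88 from 18.2 ± 0.137 to 33.7 ± 2.23 CPM. EGLN1, the main HIF hydroxylase, rose by 0.72 in 10 µM persister cells and 0.23 in 320 µM adapted ones. The coactivator gene CREBBP fell in all 4 treated conditions, by 0.27 to 1.08. ELOB and ELOC, which act beside VHL, differed in 10 µM persister cells, where ELOB fell by 0.17 and ELOC rose by 0.43.

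Other HIF targets were mostly higher in the low-dose persister and high-dose adapted cells. Of 31 tested, 25 rose and 1 fell in 10 µM persister cells, 15 and 4 in 320 µM persister, 11 and 8 in 10 µM adapted and 23 and 4 in 320 µM adapted cells, with medians of 1.20, 0.31, -0.0072 and 0.81. Among all tested genes 27.3%, 26.3%, 33.7% and 37.6% were called higher in these 4 comparisons. The shares called lower were 29.3%, 28.3%, 33.4% and 36.9%, and the 10 µM adapted counts were near the all-gene shares. DDIT4, an inhibitor of mTOR signalling, was at 18.1 ± 0.446 CPM in control and 265 ± 3.85 in 320 µM adapted cells, with called rises of 1.85, 2.51, 2.16 and 3.87 in 10 µM persister, 320 µM persister, 10 µM adapted and 320 µM adapted cells. BHLHE40, a transcriptional repressor, rose by 3.37 in 320 µM adapted cells. STC2, a secreted glycoprotein, rose by 2.19 to 2.84 in all 4 conditions. HILPDA, a lipid droplet protein, rose by 1.50 in 10 µM persister cells and 0.28 in 320 µM persister ones, and stood at 0.01, not called, in 320 µM adapted cells. The collagen-modifying enzymes P4HA2 and PLOD1 rose in all 4 treated conditions, P4HA2 by 0.65 to 1.75 and PLOD1 by 0.21 to 1.17. For the difference between the steps from persister to adapted cells at the 2 doses, 27 of the 31 were called more positive at 320 µM and none more negative. Among all tested genes the shares were 23.4% and 25.9%.

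Of 19 tested glycolytic HIF targets, 15 rose and 1 fell in 10 µM persister cells, 5 rose and 9 fell in 320 µM persister, 9 and 7 in 10 µM adapted and 15 and 3 in 320 µM adapted cells, and all 19 were called more positive in the difference between the 2 steps. Among all tested genes 27.3%, 26.3%, 33.7% and 37.6% were called higher in the 4 comparisons. The shares called lower were 29.3%, 28.3%, 33.4% and 36.9%, and 23.4% were called more positive in the difference. PFKP, a phosphofructokinase, rose by 2.36 and ENO2, an enolase, by 2.71 in 320 µM adapted cells. PGK1, which yields ATP in glycolysis, rose by 0.84 in 10 µM persister cells and 0.75 in 320 µM adapted ones, and fell by 0.11 in 320 µM persister cells. The glucose transporter gene SLC2A1 rose by 1.16 in 10 µM persister cells, from 95.2 ± 6.87 to 214 ± 2.42 CPM, but fell by 0.55 in 320 µM adapted, 0.59 in 320 µM persister cells and 1.38 in 10 µM adapted cells. The lactate exporter gene SLC16A3 rose by 4.50 in 10 µM persister, 3.01 in 10 µM adapted and 2.74 in 320 µM adapted cells, from 1.38 ± 0.0817 CPM in control. HK1, a hexokinase, rose by 1.18 in 320 µM adapted cells.

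Of 18 tested mitophagy genes other than BNIP3 and BNIP3L, 8 rose and 4 fell in 10 µM persister, 9 and 1 in 320 µM persister, 5 and 7 in 10 µM adapted and 8 and 4 in 320 µM adapted cells. Their medians were 0.26, 0.24, -0.027 and 0.27 against -0.026, -0.013, 0.0048 and 0.0091 over all genes, of which 56.6%, 54.6%, 67.1% and 74.5% were called, and nothing is read from these counts about the list. The autophagy receptor gene OPTN rose by 1.50 in 10 µM persister cells and fell by 0.39 in 320 µM adapted cells. CALCOCO2, another receptor, rose in all 4 treated conditions, by 0.87 to 1.67, as did GABARAPL1, by 0.96 to 1.71. SQSTM1, the receptor also called p62, rose by 2.34 and 0.48 after the low and the high persister dose and by 0.49 in those adapted to 320 µM, and fell by 0.13 in those adapted to 10 µM. TAX1BP1, a further receptor, fell in both adapted conditions, by 0.74 and 0.61, rose by 0.13 in 320 µM persister cells and stood at 0.03, not called, in 10 µM persister cells. MAP1LC3B, which coats autophagosomes, rose by 0.84 and 0.43 after the low and the high persister dose and by 0.27 at the high adapted dose, and stood at -0.04, not called, at the low adapted dose.

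Paralogs and partners of the 10 genes gave the contrast of NDUFA4 with NDUFA4L2. NDUFA4, the respiratory chain subunit that NDUFA4L2 resembles, fell in every treated condition, by 0.81 in 10 µM persister, 0.19 in 320 µM persister, 1.02 in 10 µM adapted and 1.30 in 320 µM adapted cells, where its level was 550 ± 11.8 CPM against 1346 and 1357 in the control sums. Of the 22 tested, 10 rose and 3 fell in 10 µM persister, 9 and 4 in 320 µM persister, 10 and 6 in 10 µM adapted and 10 and 8 in 320 µM adapted cells, where 56.6%, 54.6%, 67.1% and 74.5% of all genes were called, so the count says nothing particular of these genes. PGF, a VEGFA relative, rose by 5.17 in 10 µM adapted and 5.29 in 320 µM adapted cells, to 39.3 ± 1.20 and 42.7 ± 0.528 from 1.08 ± 0.0294 CPM in control. NRP2, a VEGF coreceptor, rose in both persister conditions, by 0.78 and 0.62, and fell in both adapted conditions, by 2.06 and 1.60. CA12, a carbonic anhydrase related to CA9, rose by 2.48 in 10 µM persister cells and 1.81 in 320 µM persister ones, fell by 0.53 in 10 µM adapted cells and stood at -0.03, not called, in 320 µM adapted cells. COX4I1, a subunit of the respiratory chain, fell by 0.51 in 10 µM persister cells and rose by 0.16 in 320 µM adapted cells.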

How the data were processed

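Single-cell libraries of the 10x Genomics 3′ v3.1 kit were made from hashed Kuramochi cells, per the labels' protocols. Per the submitters' processing notes, Cell Ranger 3.1 and Seurat were used and the build is GRCh38, without a stated role. How reads were counted and cells demultiplexed, filtered or cleared of doublets was not given in the sources used here. In the deposited matrix are raw UMI counts that the authors did not normalize, and no doublet caller was run. The pools share 13 cell barcodes. Other deposited values were used to match cells. The g1 list also served to set its cells apart in the results above and in an alternative fit. In that list the authors' UMI total equals the matrix total in 37 of 7762 rows.

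Counts were summed per condition and pool, filtered with filterByExpr, scaled with trimmed mean of M-values and tested with edgeR 4.0.16 in R 4.3.3 (robust quasi-likelihood, 1 mean per condition, 5 residual degrees of freedom, biological coefficient of variation 4.39%) with Benjamini-Hochberg adjustment over 13330 genes. SE is the absolute log2 change over the root of F. The pipeline was tested on simulated data. Pool numbers pair the sums: pool differences of every pair of conditions correlated at 0.338 to 0.612 over 2730 genes, and the pool entered as a block in an alternative. DESeq2 1.42.0 was a further alternative. The 10 genes and all lists were chosen with earlier results of these data known. From each list up to 6 genes with the lowest p against control and at least 20 CPM were named, and HIF1A, EPAS1, EGLN1, NDUFA4 and P4HA2 always. Intervals and floors cover counting error only. The hashtag libraries and antibody sequences were not used here.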

Additional observations from a re-analysis of the deposited data

Results flagged for a closer look

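The step from persister to adapted cells differed between 320 µM and 10 µM for all 9 tested genes, in the test of that difference itself (edgeR, n = 2 sums per condition). The log2 differences were 4.66 for NDUFA4L2, 3.48 for NDRG1, 3.26 for BNIP3, 3.03 for ADM, 2.51 for EGLN3, 2.17 for VEGFA, 1.98 for BNIP3L, 1.52 for P4HA1 and 1.09 for ANKRD37. Among all tested genes 23.4% were called in the same direction.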

How the results depend on the processing

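The number of the 9 tested genes called in each comparison, and the number of all genes called, stayed within 1.5 times the reported count under all 7 other settings and in the 10 fits that left out 1 sum, where the remaining sum of that condition is assumed to vary like the other conditions. The fit with the replicate block for the pool gave the same counts of the 9 genes, 9, 7, 8 and 8 against control in 10 µM persister, 320 µM persister, 10 µM adapted and 320 µM adapted cells, and changed none of their calls. Library totals alone moved the median of all genes by -0.23 in 320 µM adapted cells against control, 0.12 in 10 µM persister cells against control, -0.28 and -0.19 for adapted against persister cells at 320 and 10 µM, and -0.16 between the adapted doses. With them ADM in 10 µM adapted cells against control turned to -0.022 and ANKRD37 for adapted against persister cells at 320 µM to -0.20. Leaving out 1 sum at a time gave BNIP3L in 320 µM persister cells -0.068 (without pool 1 of those cells) to 0.22, and ADM in 10 µM adapted cells -0.074 (without control pool 1) to 0.17. It gave NDUFA4L2 for adapted against persister cells at 10 µM -1.01 (without 10 µM persister pool 2, called) to 0.12 (without pool 1), and ANKRD37 for the same at 320 µM -0.055 (without 320 µM persister pool 2) to 0.22. Each value with the sign opposite to the reported one was itself not called, and the cause was not tested. With the g1 list alone ADM in 10 µM adapted cells (0.26) and ANKRD37 for adapted against persister cells at 320 µM (0.46) passed and EGLN3 for the latter (-0.15) did not.

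The number of the 10 genes detected per cell moved with depth by construction. In control, 10 µM persister, 320 µM persister, 10 µM adapted and 320 µM adapted cells it was 1.86, 3.68, 2.47, 1.85 and 3.24 without thinning, 1.09, 2.34, 1.30, 1.20 and 2.26 at 5000 UMIs, and 0.0718, 0.518, 0.0910, 0.110 and 0.471 when at least 2 UMIs were asked for. Listed cells alone gave 0.826 in 320 µM persister, 0.816 in 10 µM adapted and 1.83 in 320 µM adapted cells. In 10 µM persister cells depth limits CA9, with 0 UMIs in both sums, and NDUFA4L2, with 33 and 16.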
